A study of Homo sapiens with 3 samples.

Results

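RBM17 contacts on the transcripts of 10 transcription factor genes of the erythroid and leukemic program were examined in K562 cells. The genes were GATA1, GATA2, TAL1, LMO2, KLF1, NFE2, MYB, MYC, RUNX1 and ZFPM1, chosen by name as regulators of this program. They are 10 of the 10872 genes that carried a cluster in replicate 2. K562, a human line grown from chronic myelogenous leukemia cells, can be driven toward erythroid differentiation. RBM17 was mapped by eCLIP-seq, which uses ultraviolet light to fix proteins to the RNA they touch and reads out the RNA that comes down with an antibody. The cells were not otherwise treated. The data comprised 2 RBM17 eCLIP libraries (antibodies Bethyl A302- 497A and A302-498A) and 1 size-matched input library, set aside before the beads were washed and cut from the same 50 to 125 kDa region of the gel. Nothing in the labels says whether the 2 libraries came from separate cultures.

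GATA1 and GATA2 are zinc finger proteins that bind the GATA motif, GATA2 mainly in stem and progenitor cells and GATA1 in maturing erythroid cells and megakaryocytes. GATA1 acts with the cofactor FOG1, encoded by ZFPM1, and both GATA factors can join a complex with the helix-loop-helix protein TAL1 and the bridging protein LMO2. KLF1 and NFE2 activate globin and other red cell genes, whereas MYB, MYC and RUNX1 act earlier, in the growth and identity of progenitors, and are recurrent targets of genetic lesions in leukemia. RBM17, also called SPF45, is a splicing factor that takes part in 3′ splice site recognition.

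Replicate 2 was deposited as clusters of reads, each named for a gene, before any comparison with the input. Members held 196 of these 119066 clusters and 1840 reads. Replicate 1 was deposited without gene names or reads, but each of its 137095 clusters has a log2 fold over the input and a −log10 p. A replicate 1 cluster was assigned to a member when it lay on the same strand within the span from the first to the last replicate 2 cluster of that gene, which gave 121 clusters. No other gene had a replicate 2 cluster on the same strand within any of these spans (0 of 10). The authors' list of 866 reproducible peaks combines both replicates. A cluster is called enriched here when its log2 fold and its −log10 p are both at least 3, thresholds near those of the reproducible list. With 1 library for each kind of value, no fold or read number has a replicate error, no test across samples could be made, and the comparisons below are descriptions.

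All 10 members had at least 2 clusters in replicate 2, and 9 of them had more reads than the median gene, which had 33. Clusters past both thresholds were found in MYB and in no other member. MYB carried the single reproducible peak of the group, so that 1 of 10 members had one, against 4.07% of all genes with a replicate 2 cluster. MYB was also the only member with an enriched cluster in replicate 1 (1 of 10), against 16.2% of all genes. Of the 121 member clusters in replicate 1, 3 were enriched (2.48%, exact Clopper-Pearson 95% interval 0.514 to 7.07%, which covers counting error only), against 5.35% of all replicate 1 clusters. All 3 lay in MYB, which had 40 replicate 1 clusters. Its share of 7.5% has an exact interval of 1.57 to 20.4%, which includes the 5.35% of all clusters. The other members had 0 of 81. That count was fixed by setting apart the gene that held all 3, so no limit on their share was drawn from it. The interval over all 121 member clusters includes 5.35%. The median log2 fold was 1.10 over the member clusters and 1.51 over all clusters of replicate 1.

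Peaks were more frequent in well-read genes. Among genes with at least 100 replicate 2 reads, 16.3% had a reproducible peak and 44.4% had an enriched replicate 1 cluster. Of the members, 7 had at least 100 reads, and of these MYB alone had either (1 of 7). Reads in replicate 2 are not set against the input, so a high transcript level and strong binding cannot be told apart in them.

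**Figure D1:**
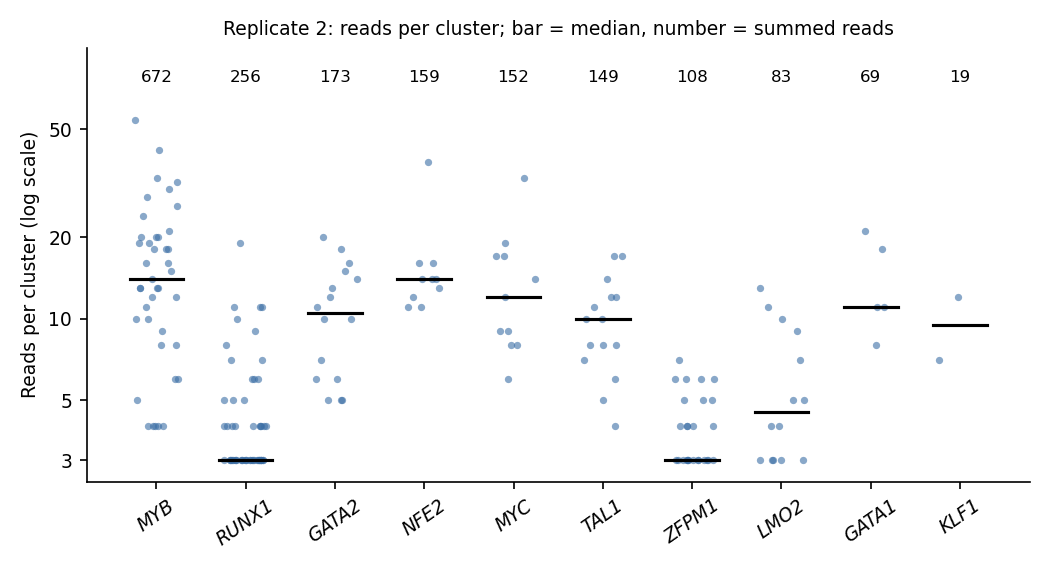
Reads of each replicate 2 cluster (points, log scale) for the 10 members, ordered by their summed reads (number above each column), with the median over clusters as a bar. MYB leads with 672 reads, while RUNX1 and ZFPM1 consist mostly of clusters of 3 or 4 reads, and KLF1 has 2 clusters.

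MYB is a progenitor transcription factor whose level falls as blood cells mature. It had the most reads of the group and the highest log2 fold of a single cluster. It held 41 replicate 2 clusters with 672 reads, which is 36.5% of all member reads and more than in 98.5% of all genes. Its clusters spanned 34194 bp on the + strand of chromosome 6, from 135502540 to 135536733 in hg19. For comparison, the gene is 37866 bp long in the hg38 annotation of GENCODE v44, so the clusters ran over most of it. Replicate 1 had 40 clusters in this span, whose log2 folds had a median of 1.04 and extremes of -1.49 and 4.71. The log2 folds thus varied along MYB. Of the 40 clusters, 5 had a log2 fold below 0, as did 11.4% of all replicate 1 clusters.

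The enriched MYB clusters lay together at the 5′ end of the gene. The strongest, at chr6:135502717-135502771, began 177 bp from the 5′ edge of the span and had a log2 fold of 4.71 and a −log10 p of 6.22 in replicate 1. This interval is the reproducible peak, whose values over both replicates were a log2 fold of 4.44 and a −log10 p of 3.84. The replicate 2 cluster inside it held 12 reads, fewer than the median MYB cluster, which had 14. The next enriched cluster, at chr6:135503865-135503925, had a log2 fold of 3.58 and a −log10 p of 5.03, and its replicate 2 partner held 8 reads. The third, at chr6:135504205-135504270, had a log2 fold of 4.28 and a −log10 p of 4.44 and was not matched by any replicate 2 cluster. It was therefore seen in 1 library alone. All 3 ended within 1731 bp of the 5′ edge. Beyond them, the 35 remaining MYB clusters reached a log2 fold of at most 2.77 and a −log10 p of at most 2.76, so that none of them passed either threshold.

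A larger share of enriched clusters than of all clusters lay at the 5′ end in long spans generally. The first 5% of the span held 3 of the 3 enriched MYB clusters and 5 of all 40. Over all genes with a span of at least 10000 bp, it held 17.6% of the enriched clusters and 10.5% of all replicate 1 clusters.

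In the study's annotation, the MYB peak is placed at a 5′ splice site, the end of an exon from which the spliceosome removes an intron. The peaks are in hg19 and the gene models used here in hg38, so the distance to that site was not measured. Lengths alone narrow the choice. The clusters span 3672 bp less than the annotated gene, and if the gene has the same length in both builds, the peak ends at most 3904 bp after the gene start. Only 1 exon end with an intron behind it is annotated within that reach, that of exon 1 at 229 bp, which 37 of the 41 annotated MYB transcripts use. The following one lies at 4713 bp. The last 30 bases of exon 1, shown because they lead into this splice site and hold the start codon (capitals), were taken from the canonical MYB transcript in GENCODE v44 (chr6:135181507-135181536 in hg38, + strand).
MYB exon 1 end: ccgcgccATGgcccgaagaccccggcacag
The stretch holds the last bases of the 5′-UTR and the first codons of MYB, with 9 G among 30 bases (30%) and 0 runs of 3 or more G. It is not the sequence of the peak.

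**Figure D2:**
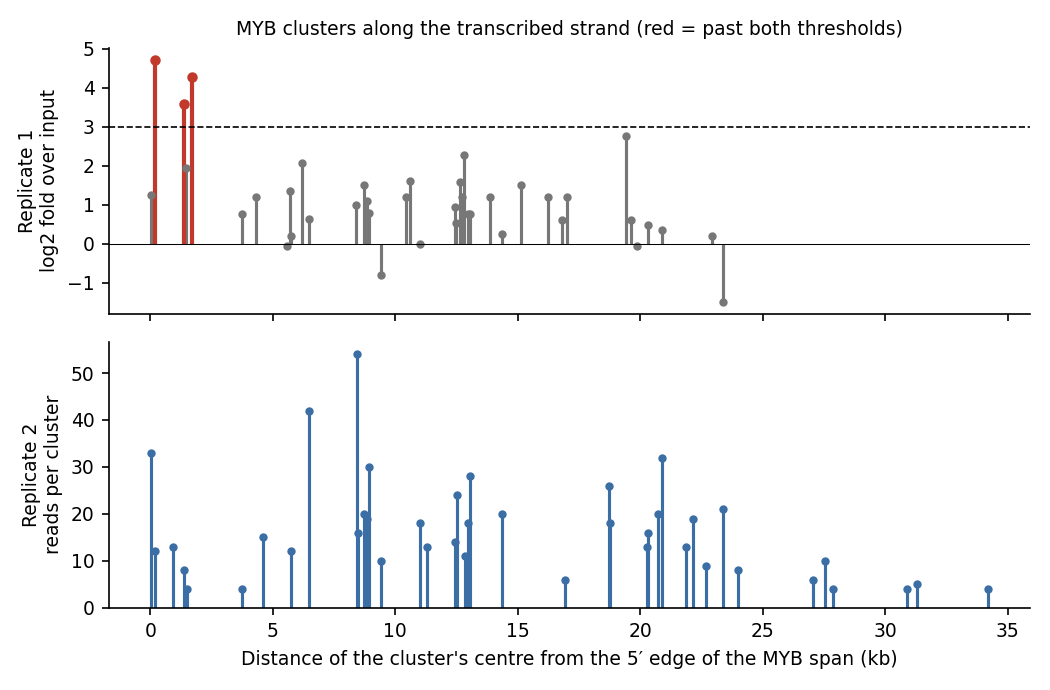
MYB clusters by the distance of their centre from the 5′ edge of the span, with the log2 fold over the input in replicate 1 (top, red past both thresholds, dashed line at 3) and the reads in replicate 2 (bottom). The 3 enriched clusters of replicate 1 sit in the first 1731 bp, whereas the best-read clusters of replicate 2 lie further along the gene.

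The clusters with the most reads in MYB were not the ones enriched over the input. The replicate 2 cluster with the most reads, at chr6:135510927-135511001, held 54 reads with a caller p of 1.36e-39, and the replicate 1 cluster on it had a log2 fold of 0.98. The next, at chr6:135508971-135509043, held 42 reads, and its replicate 1 partner had a log2 fold of 0.64. These places drew many reads in replicate 2 but were far below the fold threshold in replicate 1. Among the 21 MYB pairs of overlapping clusters, the 10 with at least 20 replicate 2 reads had log2 folds from -1.49 to 1.51. The enriched pairs had 12 and 8 reads.

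MYC, the growth regulator downstream of many mitogenic signals, had 11 replicate 2 clusters with 152 reads on chromosome 8 (128748489 to 128752991, + strand). The cluster at the 5′ edge of its span was the best read, with 33 reads. In replicate 1 this place had a log2 fold of 0.06, close to the input level. The log2 folds of its 6 replicate 1 clusters lay between -1.03 and 1.19, and their median of 0.04 was the lowest median among the members with a replicate 1 cluster.

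RUNX1, which is needed for the emergence of blood stem cells and is often rearranged or mutated in leukemia, had the most replicate 2 clusters of the group and the fewest reads per kb of span. Its 55 clusters held 256 reads over 259710 bp on chromosome 21 (36161856 to 36421565, - strand), or 0.986 reads per kb, and 40 of them had 3 or 4 reads. The canonical RUNX1 transcript is 261502 bp long in hg38, close to the distance between the outermost clusters. The best read, at chr21:36260602-36260691, held 19 reads, and the replicate 1 cluster on it had a log2 fold of 0.19. It was also the only RUNX1 cluster seen in both libraries (1 of 55). A stretch of 154383 bp without any replicate 2 cluster set the 2 clusters nearest the 5′ end apart from the others. The highest RUNX1 fold in replicate 1, 2.19, belonged to a cluster between those 2 and had a −log10 p of 0.716. The other 8 RUNX1 clusters ranged from -0.30 to 1.77.

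**Figure D3:**
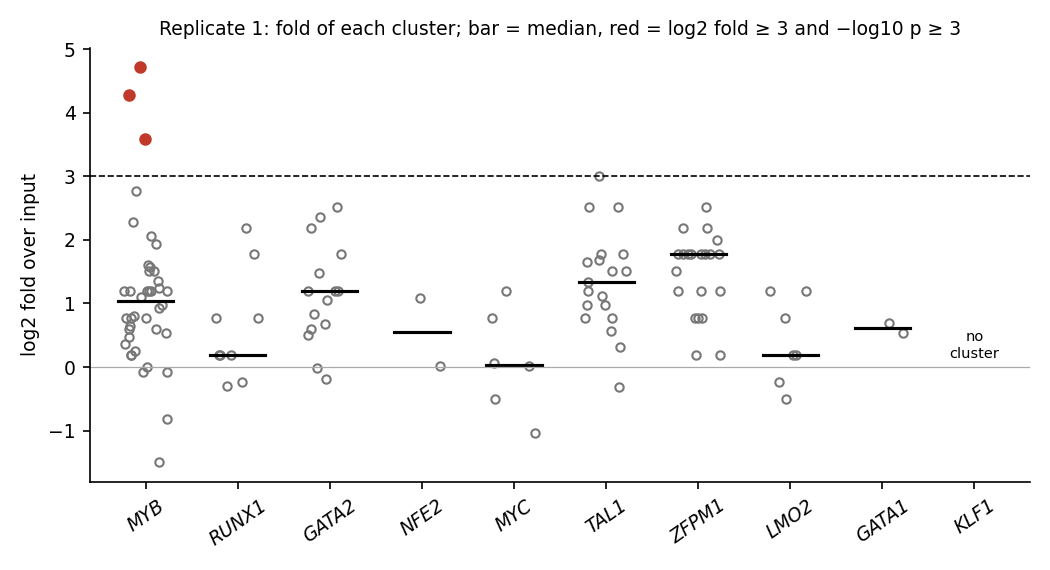
log2 fold over the input of each replicate 1 cluster (points) in the members, in the same order as the plot of reads, with the median as a bar, the fold threshold as a dashed line and enriched clusters in red. Only MYB has red points, one TAL1 cluster sits just below the line, and KLF1 has no replicate 1 cluster.

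GATA1 had 5 replicate 2 clusters with 69 reads on chromosome X, between 48650612 and 48652410. That span of 1799 bp covers a small part of a gene of 7772 bp in hg38. The best read clusters held 21 and 18 reads, and both had a replicate 1 partner, with log2 folds of 0.70 and 0.53. These were the only GATA1 clusters of replicate 1 within the span, and both were far below the fold threshold. GATA2 was covered more evenly, with 16 replicate 2 clusters of 5 to 20 reads and 173 reads in all on chromosome 3 (128199248 to 128205886). Its 15 replicate 1 clusters had log2 folds from -0.19 to 2.51, with a median of 1.19 and a −log10 p of at most 1.94. Neither GATA gene had a cluster within its span that passed either threshold.

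ZFPM1 resembled RUNX1 in replicate 2, with 27 clusters of 3 to 7 reads and 108 reads over 46000 bp of chromosome 16 (88552347 to 88598346). In replicate 1 it differed, since its 21 clusters had the highest median log2 fold of the group, 1.77, with a maximum of 2.51. None of these folds was backed by a −log10 p above 1.03. The value of 1.77 was shared by 8 of the 21 clusters and is the most frequent fold in the whole file, where 18130 clusters (13.2%) have it. The reads behind these folds are not in the file of replicate 1. A 24819 bp stretch without replicate 2 clusters split the span into 12 and 15 clusters, and replicate 1 had 6 clusters inside it.

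Within the spans of replicate 2 clusters, TAL1 had the next highest log2 fold and −log10 p after MYB. It had 15 replicate 2 clusters with 149 reads on chromosome 1 (47683948 to 47697528, - strand) and 19 replicate 1 clusters with a median log2 fold of 1.33. One replicate 1 cluster, at chr1:47696785-47696843, had a −log10 p of 3.5 but a log2 fold of 2.51, below the threshold. It lay 685 bp from the 5′ edge of the span, and the replicate 2 cluster on it held 11 reads. A second, at chr1:47690222-47690267 near the middle of the span, had a log2 fold just under 3 and a −log10 p of 2.81. No replicate 2 cluster overlapped it. Replicate 1 had a partner for 9 of the 15 replicate 2 clusters of TAL1, the highest share of the group at 60%.

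LMO2, which joins TAL1 to GATA factors without binding DNA itself, had low folds over the input where it had any. Its 14 replicate 2 clusters held 83 reads, 7 of them with 3 or 4 reads, over 32937 bp of chromosome 11 (33880559 to 33913495). The 7 replicate 1 clusters had log2 folds between -0.51 and 1.19 with a median of 0.19. All lay in the 3′ part of the span, and only 2 of the 14 replicate 2 clusters had a replicate 1 partner, so most LMO2 clusters have no value relative to the input.

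NFE2 was the most densely covered member in replicate 2, with 10 clusters and 159 reads over 2841 bp of chromosome 12 (54686227 to 54689067), or 56.0 reads per kb of span. Its best read cluster held 38 reads, and the replicate 1 cluster on it had a log2 fold of 1.08. The other NFE2 cluster of replicate 1 had a log2 fold of 0.01. KLF1 had the fewest clusters and reads of the group, with 2 clusters of 12 and 7 reads on chromosome 19 (12995671 to 12996260). Its reads were below those of the median gene. Replicate 1 had no cluster within that span, which is 590 bp long, whereas the KLF1 gene is 2780 bp long in hg38. Both genes are compact, and their spans cover only part of the annotated gene.

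Because such short spans could miss clusters of replicate 1, each span was also widened on both sides until it held the length of the whole canonical transcript, leaving out clusters that lay within the span of another gene. This gave 147 replicate 1 clusters in place of 121. KLF1 then had 7, with a −log10 p of at most 1.53. GATA2 had 18, with a highest log2 fold of 3.51 and a highest −log10 p of 6.03, but no cluster passed both thresholds. MYB remained the only member with an enriched cluster or a reproducible peak (1 of 10). A widened span can reach beyond the gene.

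Both libraries found some of the same places in the members. Of the 196 member clusters of replicate 2, 49 were overlapped by a replicate 1 cluster (25%, exact Clopper-Pearson interval 19.1 to 31.7%), against 31.9% of all replicate 2 clusters. Of the 121 in replicate 1, 49 overlapped replicate 2 (40.5%, interval 31.7 to 49.8%), against 26.3% of all. The share over all clusters lay just above the interval for replicate 2 and below the interval for replicate 1. These intervals treat clusters as independent, which clusters of 1 gene are not. RUNX1 alone held 55 of the 196 replicate 2 clusters, with 1 of them overlapped. For replicate 1 the rule itself kept only clusters within spans of replicate 2. By gene, the share of replicate 2 clusters with a partner ran from 0 of 2 in KLF1 and 1.82% in RUNX1 to 51.2% in MYB and 60% in TAL1.

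Among the best supported clusters the libraries overlapped more. With a caller p of at most 1e-10, members had 20 replicate 2 clusters, 15 of them in MYB, and 16 of the 20 were overlapped by replicate 1 (80%), against 78.7% of all such clusters. The log2 folds of the 16 replicate 1 partners ran from 0.06 to 1.51 with a median of 0.74. Over all genes, replicate 1 clusters on such a replicate 2 cluster had a median of 1.19, and 10.6% of them were enriched.

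**Figure D4:**
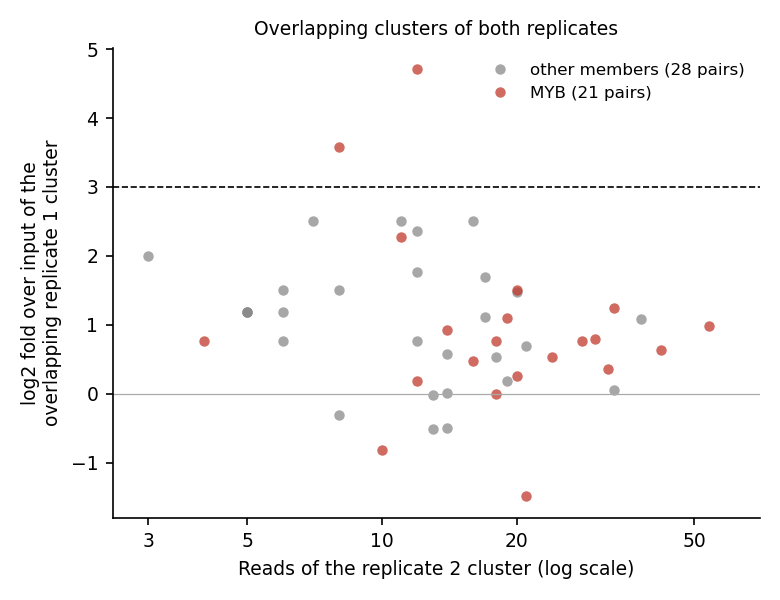
Pairs of overlapping clusters in the members, with the reads of the replicate 2 cluster (log scale) against the log2 fold over the input of the replicate 1 cluster, and a dashed line at a log2 fold of 3. The 2 MYB pairs above the line have 12 and 8 reads, and every MYB pair with at least 20 reads lies at or below 1.51.

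Genes that work with the members were described in the same way, and differences between the lists were not tested. Of 20 known partners and cofactors, such as the bridging protein LDB1 and the MYC partner MAX, all 20 had replicate 2 clusters and 12 had an enriched replicate 1 cluster (60%), against 1 of 10 members and 16.2% of all genes. Among the 11 with at least 100 reads, 9 had one, against 44.4% of all genes so well read. Of their 619 replicate 1 clusters, 54 were enriched (8.72%), against 5.35% of all replicate 1 clusters. Their spans were longer, with a median of 49038 bp against 10110 bp for the members, and held more replicate 1 clusters, with a median of 24 against 8, and the part of this in the difference was not tested. The best read were CBFA2T3, a corepressor of the TAL1 complex, with 498 reads, and LDB1 with 275 reads. CBFA2T3 had 1 enriched replicate 1 cluster and LDB1 had 4. A reproducible peak was present in 1 (5.0%, against 4.07% of all genes), MAFG, which encodes a small MAF protein that pairs with NFE2. It lay at chr17:79880891-79880957, with a log2 fold of 4.05 and a −log10 p of 5.27. MAFG had 90 reads. Of the 11 partners with at least 100 reads, 0 had a reproducible peak, against 16.3% of all genes so well read.

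Among 25 other hematopoietic transcription factors, 18 had a replicate 2 cluster, with a median of 53.5 reads, and 2 had an enriched replicate 1 cluster (11.1%, against 16.2% of all genes). The best read were STAT5B with 552 reads and STAT5A with 277 reads. These genes encode related mediators of cytokine signaling, and STAT5 is active downstream of BCR-ABL1. STAT5B had 6 enriched clusters among 43 in replicate 1, and 1 reproducible peak, at chr17:40369775-40369818 with a log2 fold of 4.58. STAT5A had 0 enriched clusters among 21, and the share over all replicate 1 clusters was 5.35%.

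Of 28 genes of the erythroid program, such as globin, heme and red cell membrane genes, 26 had a replicate 2 cluster, 11 had an enriched replicate 1 cluster (42.3%, against 16.2% of all genes) and 3 had a reproducible peak (11.5%, against 4.07%). Among the 14 with at least 100 reads, 9 had an enriched cluster, against 44.4% of all genes so well read. Of these 14, 3 had a reproducible peak, against 16.3% of all genes so well read. HBG2, a fetal globin gene, held the most reads, with 1553 in 128 clusters. These reads may be shared with its near-identical neighbor HBG1, which had 139 reads in 3 clusters. They may also be shared with HBE1, another globin gene of chromosome 11, which had 1142 reads in 118 clusters. How far the clusters named for these genes cover the same region was not examined. The transferrin receptor gene TFRC followed with 1395 reads and had 2 enriched clusters among 76. Genes with reproducible peaks included KEL, which encodes a blood group protein, with 2 peaks of log2 fold 3.93 and 4.54, and SLC25A37, which encodes the mitochondrial iron importer mitoferrin, with 1 of 3.19. Of the 743 replicate 1 clusters of the erythroid genes, 26 were enriched (3.5%), a lower share than the 5.35% of all replicate 1 clusters. The 743 include 68 in the span of HBG2 and 62 in that of HBE1, and some of these may be the same clusters.

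Of 12 markers of other blood cells, 3 had any replicate 2 cluster, and none of those had an enriched cluster (0 of 3, against 16.2% of all genes). With 3 genes and 7 replicate 1 clusters in all, this count cannot be told apart from that share. The best read was ITGA2B, a megakaryocyte integrin, with 44 reads, followed by CD33 with 15. MPO, CD34, KIT and CD14 had no cluster. eCLIP clusters depend on the level of a transcript and on its crosslinking, so they are not a measure of expression.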

How the data were processed

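The authors processed the eCLIP reads with the eCLIP v0.4.0 pipeline, and the submitters' processing notes name cutadapt and STAR. The genome build is not given in the sources used here. Positions reach 249211903 on chromosome 1, which is beyond its end in hg38, and all positions are given as hg19. Each replicate 1 cluster was deposited with its −log10 p, limited to 400, and its log2 fold relative to the input. For replicate 2 they deposited the p-value of the peak caller and a cluster name that holds the gene and a read number. Reproducible peaks have a pair of values that cover both libraries and have no header. They were read as −log10 p and log2 fold. The study's own table heads them as the log2 folds of replicates 1 and 2, but the first column reaches values that no log2 fold of replicate 1 approaches. The replicates are numbered as in the sample descriptions, whereas the titles number them 2 and 3. No file of the input library was used here.

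Symbols were matched to Ensembl identifiers by GENCODE v44, which holds 10423 of the 10872 genes. Intervals were overlapped by at least 1 bp on the same strand with bedtools 2.31.1, tested on simulated intervals. Other steps used Python 3.11.15, pandas 2.3.3, numpy 2.4.6, scipy 1.17.1 and matplotlib 3.10.9. Positions were converted to 1-based starts. The members and lists were chosen with earlier results of these data known. All members are named, and from the lists the genes with a reproducible peak (1 is not reported here) and the 2 with the most reads, with further genes named as examples or as markers without clusters. The named clusters are the reproducible peak, the enriched clusters, the highest fold and the most reads, and others named beside them were chosen after their values were seen. Reads ranged from 3 to 54 per member cluster, so a cluster rests on few reads. The depth of replicate 1 is unknown.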

Additional observations from a re-analysis of the deposited data

How the results depend on the processing

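Leaving out replicate 1 cannot change which members had clusters (10), since replicate 2 alone defines them, and without replicate 2 no gene could be assigned. With a −log10 p of at least 5, 0 members kept a reproducible peak, since the MYB peak has 3.84. A log2 fold of at least 2 gave 2 members with an enriched cluster, MYB and TAL1. The share of all genes at that fold is not given here, so this count has no comparison. Other thresholds, widened spans (added after seeing the data) and the other rules for overlap and strand left MYB alone. The share of member clusters of replicate 2 with a replicate 1 partner was 18.9% when the overlap had to cover 50%, 80.0% at a caller p of at most 1e-10 and 0.0% on the opposite strand. The median log2 fold was 3.93 over the 4 clusters with a −log10 p of at least 3, which the threshold itself selects. The median reads per member fell from 150.5 to 82.5 when clusters under 10 reads were left out. Counting clusters in place of reads put the median member at percentile 74.9, against 86.2. In the lists, an enriched replicate 1 cluster was present in 12 partners, 2 other factors and 11 erythroid genes, more than the 1, 1 and 3 with a reproducible peak, a comparison added after seeing the data. No paired analysis was possible because the input has no replicate and no test was made. Few reads per cluster limit all values.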
